A study of Mus musculus with 5 samples.

Results

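The *Slc2a* genes encode the facilitative glucose transporters (GLUT proteins), and 9 of them were followed in isolated mouse brain microvascular fragments: *Slc2a1*, *Slc2a3*, *Slc2a4*, *Slc2a6*, *Slc2a8*, *Slc2a9*, *Slc2a10*, *Slc2a12* and *Slc2a13*. They were selected by symbol, through the Ensembl identifier of each row and the NCBIM37 annotation, and are 9 of the 12 annotated *Slc2a* transporter genes with a row and of 34615 symbols in all. Fragments came from 3 wild-type (WT) males and 2 males heterozygous for Ins2-AKITA, 1 library per mouse, all C57BL6 (C57Bl/6-J in the study's methods) and between 26 and 38 weeks of age. The WT mice were littermate controls. The Ins2-AKITA allele makes an insulin that misfolds and kills the beta cells of the pancreas, so that carriers have little insulin and chronically high blood glucose. The comparison of the genotypes asks which transcripts of the brain vasculature differ after long exposure to that state.

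Brain endothelium has few open paths between its cells, so that glucose crosses it mainly through transporters that run along the concentration gradient without energy input. GLUT1, the product of *Slc2a1*, carries glucose across the endothelial membranes of the blood-brain barrier and into astrocytes, while GLUT3, the product of *Slc2a3*, is the main transporter of neurons. GLUT4, from *Slc2a4*, is the form that insulin moves to the surface of muscle and fat cells, and several other members carry urate, myo-inositol or other substrates, or sit mostly in membranes inside the cell.

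Fragments were purified with beads against PECAM1 and hold endothelium, pericytes and attached astrocyte end-feet, so that each value is a mean over several cell types. All 12 endothelial markers examined (*Pecam1*, *Cdh5*, *Cldn5* and others) were above 0 in every mouse, with a summed level of 472 to 955 FPKM (sequenced fragments divided by exon length and by library depth). Markers of other brain cells were also present in every mouse, with sums of 831 to 1009 FPKM for 10 neuronal markers and 1760 to 3257 FPKM for 8 astrocyte markers. An estimate from the steps between low values put the libraries at 1163723, 1316970 and 2861090 counted fragments in WT replicates 1 to 3, while Ins2-AKITA replicates 1 and 2 had 1125997 and 1281940. The share of all FPKM that fell on protein-coding genes was 3.09%, 3.20% and 11.0% in WT, against 9.76% and 27.5% in Ins2-AKITA. A rescaling of each library to a common FPKM sum (TPM) took the median fold change over all genes tested from -0.03 to 1.07 on the log2 scale, and values below are on the deposited scale unless stated otherwise.

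*Slc2a1* is the member on which most of the family's expression rests, and its gene lies on the plus strand at chr4:118781316-118809935 (NCBIM37). The 250 bases before its start in RefSeq (GRCm38.p6, chr4:119108495-119108744, plus strand) are shown because this is the window in which promoter elements of the barrier transporter would be looked for, with matches to the GC box letters GGGCGG, searched on both strands, in capitals.
Slc2a1: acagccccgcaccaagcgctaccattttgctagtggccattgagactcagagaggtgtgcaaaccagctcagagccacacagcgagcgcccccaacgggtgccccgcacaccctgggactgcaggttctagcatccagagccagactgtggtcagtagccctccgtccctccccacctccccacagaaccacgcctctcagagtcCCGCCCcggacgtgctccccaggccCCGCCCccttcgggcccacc
This window held 2 GC boxes, which begin 45 and 20 bases before the start, and 1 match to the core letters ACGTG of hypoxia-response elements between them. The same search found a GC box in 4 of the 7 members with a window in the table and in 32.7% of all 32851 windows of this length. An ACGTG match was present in 1 of the 7, *Slc2a1*, and in 16.6% of all windows. A match is a description of the letters and not evidence of binding. In NCBIM37, 105 exon bases of the noncoding gene *Gm12868* overlap exons of *Slc2a1* on the opposite strand, and *Gm12868* was above 0 only in WT replicate 3, at 1.79 FPKM.

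*Slc2a1* had the highest level of the family in each of the 5 mice. It ranked 289th of 13931 protein-coding genes tested by mean FPKM, at the 97.9th percentile. *Slc2a13*, *Slc2a3*, *Slc2a8*, *Slc2a6*, *Slc2a12*, *Slc2a4*, *Slc2a10* and *Slc2a9* followed, from a mean of 22.8 FPKM over the 5 mice for *Slc2a13* to 1.55 FPKM for *Slc2a9*. *Slc2a1* exceeded *Slc2a13* in 5 of 5 mice and *Slc2a3* exceeded *Slc2a8* in 5 of 5. Each other pair of neighbours in the order changed places in 1 or 2 of the 5 mice, so that these neighbours are not separated beyond their spread. Members farther apart in the order can be: every value of *Slc2a6* was above every value of *Slc2a4*.

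**Figure D1:**
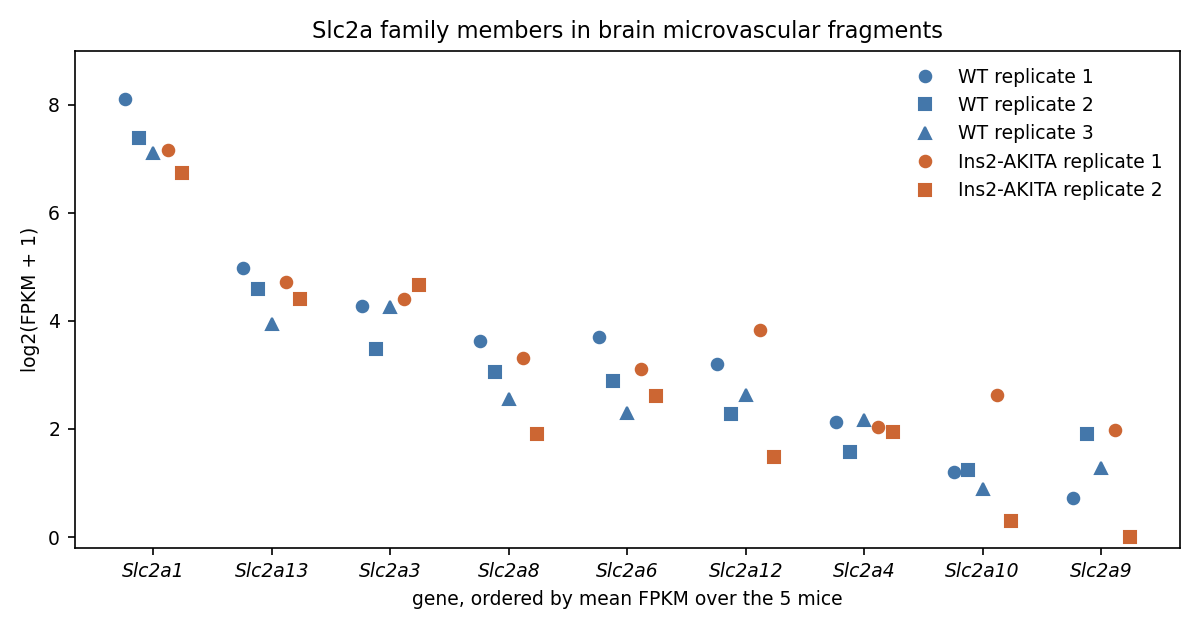
Level of each *Slc2a* member in each mouse as log2(FPKM + 1), genes ordered by mean FPKM, with WT mice in blue and Ins2-AKITA mice in orange and the marker shape giving the replicate. *Slc2a1* lies above every other member in all 5 mice, and *Slc2a3* is the only member with both Ins2-AKITA points above all WT points.

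The genotype comparison called 0 of the 9 members. Over 16286 genes with a mean of at least 1 FPKM, limma on log2(FPKM + 1) called 0 genes higher (0%) and 4 lower (0.0246%) in Ins2-AKITA at a Benjamini-Hochberg adjusted p under 0.05, or 0.0246% in either direction. At an unadjusted p under 0.05 it called 726 genes (4.46%), again with 0 of the 9 members among them. All 9 members passed the filter on low values. Their log2 fold changes (Ins2-AKITA minus WT) were above 0 for 4 members and below 0 for 5, beside 53.5% of all genes below 0, and their median was -0.05 beside -0.03 for all genes tested. The median of the members was -0.80 without Ins2-AKITA replicate 1 and 0.23 without Ins2-AKITA replicate 2, and 0.20, -0.13 and -0.22 without WT replicates 1, 2 and 3. These fragments are bulk material, in which fewer cells of a type and less RNA per cell cannot be told apart.

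**Figure D2:**
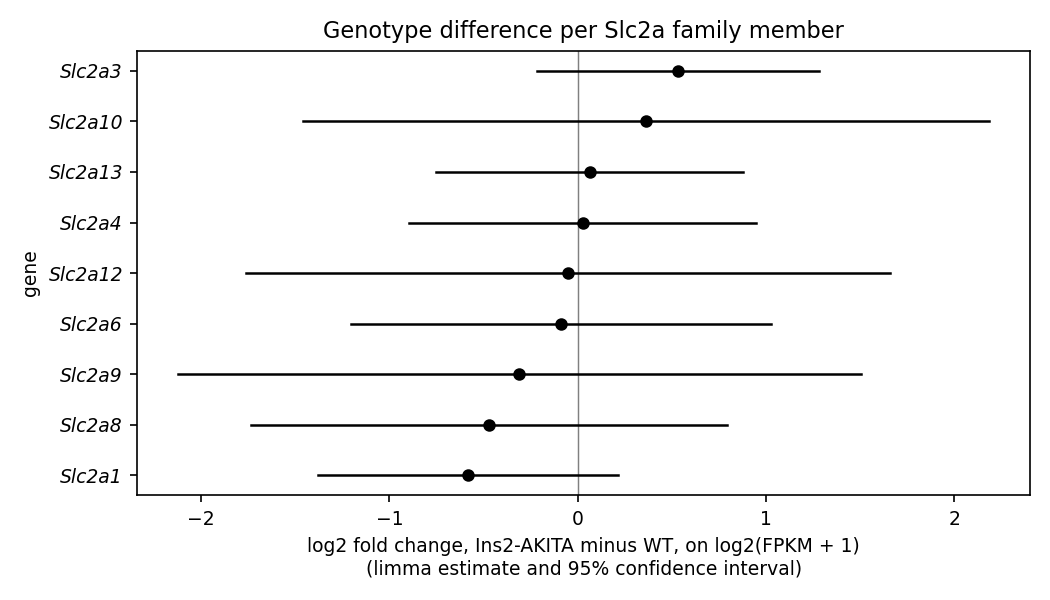
Log2 fold change of each *Slc2a* member between Ins2-AKITA (n = 2) and WT (n = 3) on log2(FPKM + 1), with points for the limma estimate and lines for its 95% confidence interval. The estimates run from -0.58 for *Slc2a1* to 0.53 for *Slc2a3*, and the interval of every member includes 0.

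Among the class I transporters, which hold the classical glucose carriers, *Slc2a1* and *Slc2a3* had the estimates farthest from 0 in the family, with opposite signs. *Slc2a1* was at 273, 167 and 137 FPKM in WT replicates 1 to 3, and at 143 and 105 FPKM in Ins2-AKITA replicates 1 and 2. WT replicate 1 stood highest and Ins2-AKITA replicate 2 lowest, but Ins2-AKITA replicate 1 was above WT replicate 3, so that the genotypes overlapped. The means were 192 ± 71.7 FPKM (SD, n = 3) in WT and 124 ± 26.4 FPKM (SD, n = 2) in Ins2-AKITA, a ratio of 0.646. On the log2(FPKM + 1) scale the difference was -0.58 (SE 0.33, 95% confidence interval -1.38 to 0.21), with an adjusted p of 0.896 by limma and p = 0.3 in a two-sided exact permutation test over the 10 splits of the mice, which cannot go below 0.1. The WT mice alone spanned a factor of 2.00 between highest and lowest. Counting error was smaller than this spread. The estimated 423 fragments of Ins2-AKITA replicate 1 gave a 95% Poisson interval of 129.6 to 157.2 FPKM, and the 1028 of WT replicate 3 gave 128.7 to 145.6 FPKM. These intervals overlap, so the order of these mice, on which the overlap of the genotypes rests, was within counting error. Without WT replicate 1 the log2 difference was -0.30, and with TPM it was 1.11, which is 0.04 above the shifted median of all genes on that scale.

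*Slc2a3* lies on the minus strand at chr6:122677827-122751658 (NCBIM37). Its level was 18.3, 10.1 and 18.1 FPKM in WT replicates 1 to 3, and 20.2 and 24.3 FPKM in the Ins2-AKITA mice. Both Ins2-AKITA mice were above all WT mice, the only member with such a separation, in either direction. The smallest gap was within counting error. Ins2-AKITA replicate 1 had a 95% Poisson interval of 17.2 to 23.6 FPKM, which overlapped those of WT replicates 1 and 3 (15.5 to 21.5 and 16.3 to 20.1 FPKM). Of all genes tested, 9.24% had both Ins2-AKITA mice above all WT mice and 10.3% had both below. The log2 difference was 0.53 (SE 0.31, 95% confidence interval -0.22 to 1.28), with an adjusted p of 0.896 by limma and p = 0.3 in the exact permutation test. The value in WT replicate 2 was low against the other WT mice, and without it the log2 difference was 0.27.

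*Slc2a4*, the insulin-responsive transporter, was at 3.35, 1.98 and 3.51 FPKM in WT and at 3.09 and 2.82 FPKM in Ins2-AKITA. The Ins2-AKITA values lay inside the WT range, and the log2 difference was 0.03 with a 95% confidence interval of -0.90 to 0.95. These values rest on an estimated 7 to 26 fragments per mouse, and changes within that interval in either direction remain possible. The interval is not a limit of detection for the adjusted calls.

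The share of *Slc2a1* within the family separated the genotypes. *Slc2a1* made up 76.1%, 74.6% and 72.4% of the summed FPKM of the 9 members in WT replicates 1 to 3, whereas in Ins2-AKITA replicates 1 and 2 it made up 62.2% and 64.8%. Both Ins2-AKITA mice were below all WT mice. The mean share was 74.4 ± 1.87% (SD, n = 3) in WT and 63.5 ± 1.81% (SD, n = 2) in Ins2-AKITA, a difference of -10.9 percentage points, with p = 0.1 in the two-sided exact permutation test, the smallest value that 10 splits allow. The difference ran, over fits without 1 of the mice, from -12.1 to -9.58 points. Since the groups do not overlap, leaving out a mouse cannot turn its sign. Among single genes tested, 10.3% had both Ins2-AKITA mice below all WT mice. A share within a mouse does not depend on how that mouse's library is scaled. It is still a value of mixed cells, and the part of cell composition in it was not tested.

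**Figure D3:**
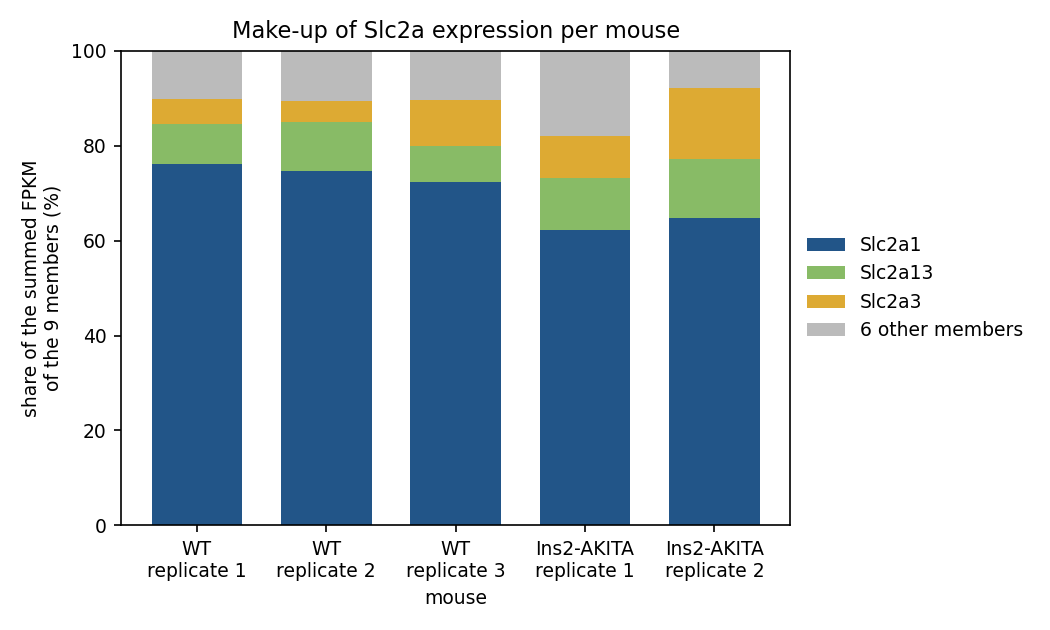
Share of each mouse's summed *Slc2a* FPKM (9 members, in %) taken by *Slc2a1*, *Slc2a13*, *Slc2a3* and the 6 other members together, 1 bar per mouse. The *Slc2a1* part runs from 72.4% to 76.1% among WT mice and from 62.2% to 64.8% among Ins2-AKITA mice.

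The summed level of the members was 359, 224 and 189 FPKM in WT and 230 and 163 FPKM in Ins2-AKITA, and the genotypes overlapped (exact permutation p = 0.6). Without *Slc2a1*, the other 8 members summed to 85.8, 56.8 and 52.3 FPKM in WT and 86.8 and 57.4 FPKM in Ins2-AKITA, again with overlap (exact permutation p = 0.5). *Slc2a13* and *Slc2a3* had the largest shares after *Slc2a1* in both Ins2-AKITA mice. In Ins2-AKITA replicate 1, *Slc2a12* and *Slc2a10* took 5.77% and 2.27% of the family's FPKM, and in the other 4 mice they took at most 2.76% and 0.612%. In Ins2-AKITA replicate 2, *Slc2a3* took 14.95%, above the 4.53% to 9.59% of the other mice. *Slc2a13* took 11.1% and 12.5% in the Ins2-AKITA mice, above its 7.58% to 10.3% in the WT mice. Shares are parts of a whole, so a lower share of *Slc2a1* raises those of the other members. The FPKM of *Slc2a13* itself lay inside the WT range in both Ins2-AKITA mice.

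A direct ratio of the barrier to the neuronal transporter, chosen after the values had been seen, separated the mice in the same direction. Both of its genes also enter the family share, so the ratio is not independent of that share. *Slc2a1* FPKM divided by *Slc2a3* FPKM was 14.9, 16.5 and 7.55 in WT, against 7.07 and 4.33 in Ins2-AKITA. Both Ins2-AKITA mice were below all WT mice, although WT replicate 3 and Ins2-AKITA replicate 1 lay close together. On the log2 scale the ratio differed by -1.15 (exact permutation p = 0.2).

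Cell type markers were compared in the same mice. The endothelial marker sum was 709, 955 and 566 FPKM in WT and 575 and 472 FPKM in Ins2-AKITA. The mean log2(FPKM + 1) over its 12 markers differed by -0.44 between the genotypes, with both Ins2-AKITA mice below all WT mice on that scale, 11 of the 12 markers lower on average in Ins2-AKITA (53.5% of all genes had a log2 fold change below 0) and p = 0.2 in the exact permutation test. Of the 12, 0 passed the adjusted threshold, 3 had an unadjusted p under 0.05 (*Ly6c1*, *Eng* and *Cdh5*, all lower; background 4.46% in either direction), and 5 had both Ins2-AKITA mice below all WT mice (background 10.3%). The astrocyte marker sum was 1760, 2171 and 2461 FPKM in WT and 2846 and 3257 FPKM in Ins2-AKITA, higher in both Ins2-AKITA mice, and the mean log2 difference of its 8 markers was 0.48 (exact permutation p = 0.2). The neuronal marker sum was 925, 831 and 871 FPKM in WT and 841 and 1009 FPKM in Ins2-AKITA, with overlap and a mean log2 difference of 0.06 (exact permutation p = 0.6). The 6 smooth muscle markers differed by -0.54 on the same scale, with p = 0.1 in the exact permutation test, the smallest it can give. The 10 pericyte, 8 microglial, 6 oligodendrocyte and 6 blood markers differed by -0.33, -0.02, -0.01 and -0.88, and 1 blood marker was the only one of all these markers at 0 in a mouse. The blood set was also lower in both Ins2-AKITA mice than in all WT mice on that scale. All 6 of its markers were lower on average (exact permutation p = 0.2).

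*Slc2a1* was also set against the endothelial markers of the same mouse. Its log2(FPKM + 1) minus the mean of the 12 endothelial markers was 2.56, 1.35 and 1.70 in WT, against 1.82 and 1.65 in Ins2-AKITA. The Ins2-AKITA values lay inside the WT range, with a difference of -0.14 (exact permutation p = 0.9), and without WT replicate 1 the sign turned to 0.21. WT replicate 1 had the highest *Slc2a1* but only the second endothelial marker level, while WT replicate 2 had the highest marker level. Relative to the astrocyte markers, *Slc2a1* was at 1.18, 0.49 and -0.22 in WT and at -0.25 and -0.90 in Ins2-AKITA, both below all WT mice, though WT replicate 3 and Ins2-AKITA replicate 1 lay close together (difference -1.06, exact permutation p = 0.2). The part of cell composition in the *Slc2a1* values was not tested beyond these differences.

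*Slc2a3* relative to the 10 neuronal markers, a measure chosen after the values had been seen, was -1.90, -2.49 and -1.84 in WT, against -1.62 and -1.58 in Ins2-AKITA. Both Ins2-AKITA mice stayed above all WT mice, with a difference of 0.48 (exact permutation p = 0.2), which was 0.27 without WT replicate 2. Relative to the astrocyte markers the values of *Slc2a3* overlapped, with a difference of 0.06 (exact permutation p = 0.7). Relative to the endothelial markers the difference was 0.98, with both Ins2-AKITA mice above all WT mice (exact permutation p = 0.3). The *Slc2a3* difference thus depends on the marker set it is compared with.

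**Figure D4:**
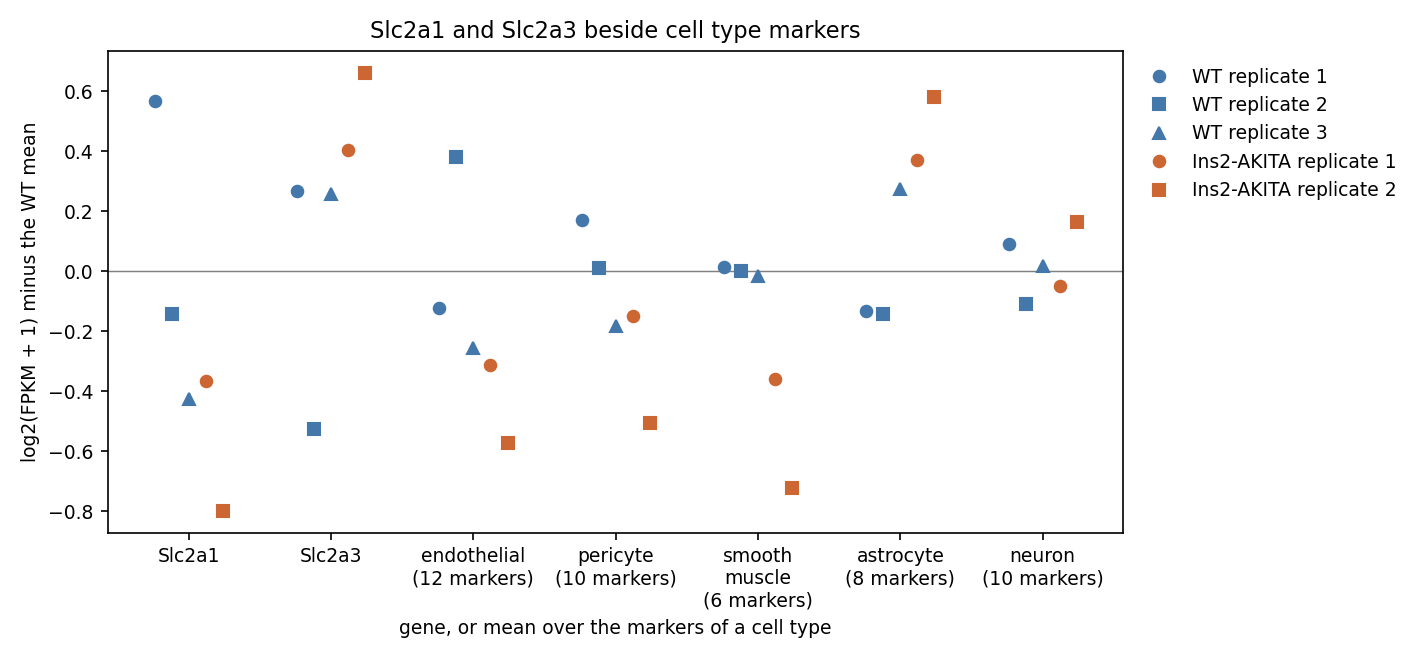
*Slc2a1*, *Slc2a3* and the mean of 5 sets of cell type markers in each mouse, as log2(FPKM + 1) minus the WT mean, with WT in blue, Ins2-AKITA in orange and the marker shape giving the replicate. The endothelial and smooth muscle sets are lowest in the 2 Ins2-AKITA mice and the astrocyte set is highest in them.

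*Slc2a9*, a class II member whose product carries urate, was at 0.640, 2.73 and 1.42 FPKM in WT and at 2.93 and 0 FPKM in Ins2-AKITA. The Ins2-AKITA mice thus held both the highest and the lowest value. A count of 0 in Ins2-AKITA replicate 2 allows up to 0.482 FPKM (3 fragments), and the log2 difference of -0.31 had a 95% confidence interval of -2.12 to 1.50. Such floors and the Poisson intervals cover counting error only.

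*Slc2a13* encodes HMIT, a proton-coupled myo-inositol transporter of the brain, and was the second most abundant member. It was at 30.7, 23.1 and 14.4 FPKM in WT and at 25.4 and 20.3 FPKM in Ins2-AKITA, inside the WT range, with a log2 difference of 0.06 (95% confidence interval -0.75 to 0.88). *Slc2a6*, a transporter of lysosomal membranes, was at 11.96, 6.36 and 3.89 FPKM in WT and at 7.67 and 5.13 FPKM in Ins2-AKITA, again inside the WT range, and its log2 difference was -0.09 (95% confidence interval -1.20 to 1.03). *Slc2a8*, whose product GLUT8 is largely intracellular, was at 11.4, 7.36 and 4.89 FPKM in WT and at 8.97 and 2.75 FPKM in Ins2-AKITA. Its lowest value was that of Ins2-AKITA replicate 2, and its log2 difference was -0.47 (95% confidence interval -1.73 to 0.79).

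*Slc2a1*, *Slc2a6*, *Slc2a8* and *Slc2a13* shared a single ranking of the mice within each genotype, with WT replicate 1 highest and WT replicate 3 lowest of the WT mice and Ins2-AKITA replicate 1 above replicate 2. The ranking of *Slc2a1* was thus held by 3 of the 8 other members, beside 17.1% of all genes tested, and it was singled out after the values had been seen. The labels do not say what the replicate numbers stand for, so the shared ranking describes only which libraries ran high or low for these genes.

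*Slc2a12* and *Slc2a10* were the most uneven members between the 2 Ins2-AKITA mice on the log2(FPKM + 1) scale. *Slc2a12*, which encodes GLUT12, was at 8.23, 3.84 and 5.22 FPKM in WT and at 13.3 and 1.78 FPKM in Ins2-AKITA. *Slc2a10*, which encodes GLUT10, was at 1.29, 1.37 and 0.846 FPKM in WT and at 5.22 and 0.234 FPKM in Ins2-AKITA. In both genes Ins2-AKITA replicate 1 was the highest and Ins2-AKITA replicate 2 the lowest of the 5 mice, so that the WT mice lay between them. The gap was wider than counting error: for *Slc2a12* the 95% Poisson intervals were 10.1 to 17.1 FPKM and 0.800 to 3.32 FPKM, and for *Slc2a10*, with an estimated 20 fragments and 1 fragment, they were 3.24 to 8.20 FPKM and 0.00590 to 1.30 FPKM. The log2 genotype differences were -0.05 (95% confidence interval -1.76 to 1.66) for *Slc2a12* and 0.36 (95% confidence interval -1.46 to 2.19) for *Slc2a10*. They ran from -1.23 to 1.13 and from -0.80 to 1.53, depending on which Ins2-AKITA mouse was left out. For *Slc2a12*, 407 bases of its exons are shared with *Tbpl1* on the opposite strand, which was at 7.71 to 11.5 FPKM. A stranded library kit was used, and how strand entered the counting is not given in the sources used here.

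Of the remaining *Slc2a* genes, 1 passed the filter, *Slc2a5*. *Slc2a2*, the transporter of liver and beta cells, was at 2.10, 0 and 0.288 FPKM in WT and at 0 and 0.665 FPKM in Ins2-AKITA, and did not reach the filter. *Slc2a5*, the fructose transporter, was at 0.292, 2.80 and 2.04 FPKM in WT and at 0.302 and 1.59 FPKM in Ins2-AKITA, with overlap and a log2 difference of -0.42 (95% confidence interval -2.06 to 1.22). *Slc2a7* was at 0 in all 5 mice, which allows up to 1.62 FPKM (3 fragments) in the mouse with the highest floor.

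Other genes of glucose entry and handling were examined as a list of 20: sodium-coupled transporters of the *Slc5a* family, hexokinases, enzymes of the polyol route and glucose-6-phosphate genes beside the 3 remaining *Slc2a* genes. Of these, 9 passed the filter, 0 were called and 0 had an unadjusted p under 0.05, with 5 log2 fold changes above 0, 4 below 0 and a median of 0.02. For all genes tested, 53.5% were below 0 and the median was -0.03. *Hk1*, the hexokinase of brain, was at 92.4, 70.4 and 95.6 FPKM in WT and at 85.3 and 95.6 FPKM in Ins2-AKITA, with overlap and a log2 difference of 0.08. *Hk2* differed by -0.12 and was at 1.03 to 2.18 FPKM over the 5 mice. The highest estimates were 0.41 for *Hkdc1*, a hexokinase-related gene, and 0.19 for *Sord*, the sorbitol dehydrogenase that follows aldose reductase. The lowest were -0.43 for *Slc37a4*, the glucose-6-phosphate carrier of the endoplasmic reticulum and 1 of the 9 with both Ins2-AKITA mice below all WT mice (background 10.3%), and -0.42 for *Slc2a5*.

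Genes that move or degrade GLUT proteins formed a list of 22, all tested. Of these, 0 were called, 16 had a log2 fold change above 0 and 6 below, and the median was 0.23. For all genes tested, 53.5% were below 0 and the median was -0.03. Both Ins2-AKITA mice were above all WT mice for 6 of the 22 (background 9.24%) and below for 2 (background 10.3%), *Exoc7* and *Tbc1d4*. *Txnip*, whose product drives GLUT1 from the cell surface and whose transcription rises with glucose in many cells, was at 114, 28.8 and 24.8 FPKM in WT and at 25.0 and 21.8 FPKM in Ins2-AKITA. WT replicate 1, the mouse with the highest *Slc2a1*, stood far above the other 4 mice, and the WT mice spanned a factor of 4.60. Ins2-AKITA replicate 1 was above WT replicate 3, and the log2 difference was -0.87 (95% confidence interval -2.41 to 0.67). *Exoc7*, an exocyst subunit that takes part in delivery of GLUT4 vesicles, was at 28.8, 36.4 and 26.5 FPKM in WT and at 24.8 and 15.2 FPKM in Ins2-AKITA, both below all WT mice, with a log2 difference of -0.61 (95% confidence interval -1.28 to 0.06). The highest estimates were 0.79 for *Rhoq*, the small GTPase TC10, whose genotypes overlapped, and 0.75 for *Rab8a*, a Rab GTPase of vesicle transport, at 21.9, 11.2 and 24.6 FPKM in WT and at 34.4 and 28.7 FPKM in Ins2-AKITA.

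The list of 10 transcription factors known to act on *Slc2a1* or on glucose-responsive genes had 3 log2 fold changes above 0, 7 below and a median of -0.16, with 0 called. For all genes tested, 53.5% were below 0 and the median was -0.03. *Mlxip*, which encodes the glucose-sensing factor MondoA, was at 14.6, 6.36 and 9.05 FPKM in WT and at 5.25 and 3.68 FPKM in Ins2-AKITA. Both Ins2-AKITA mice were below all WT mice, and the log2 difference was -0.96 (95% confidence interval -1.89 to -0.02, unadjusted limma p 0.0470, adjusted p 0.896). *Mlx*, its binding partner, was at 15.9, 15.5 and 18.5 FPKM in WT and at 13.4 and 10.2 FPKM in Ins2-AKITA, also both below (background 10.3%), with a difference of -0.47 (95% confidence interval -1.03 to 0.10). *Ctnnb1*, which encodes beta-catenin of the barrier-inducing Wnt pathway, and *Hif1a*, the hypoxia-induced factor, had the highest estimates, 0.27 and 0.24, and both overlapped.

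The other transporters and receptors of the barrier gave a frame for *Slc2a1*. Of 16, all tested, 0 were called and 1 had an unadjusted p under 0.05 (*Abcc4*, lower; background 4.46%), 11 had a log2 fold change below 0 and 5 above, and the median was -0.27, or -0.14 without Ins2-AKITA replicate 2 and -0.41 without WT replicate 3. With all 5 mice, 53.5% of all genes tested were below 0 and their median was -0.03. Both Ins2-AKITA mice were below all WT mice for 6 of the 16 (background 10.3%) and above for 0. The *Slc2a1* estimate of -0.58 lay inside the range of this list, -0.64 to 0.24. The median of the endothelial markers was -0.43, and *Slco1a4* and *Abcb1a* stand in both lists, so that the medians are not independent. What these lists and *Slc2a1* have in common was not tested.

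**Figure D5:**
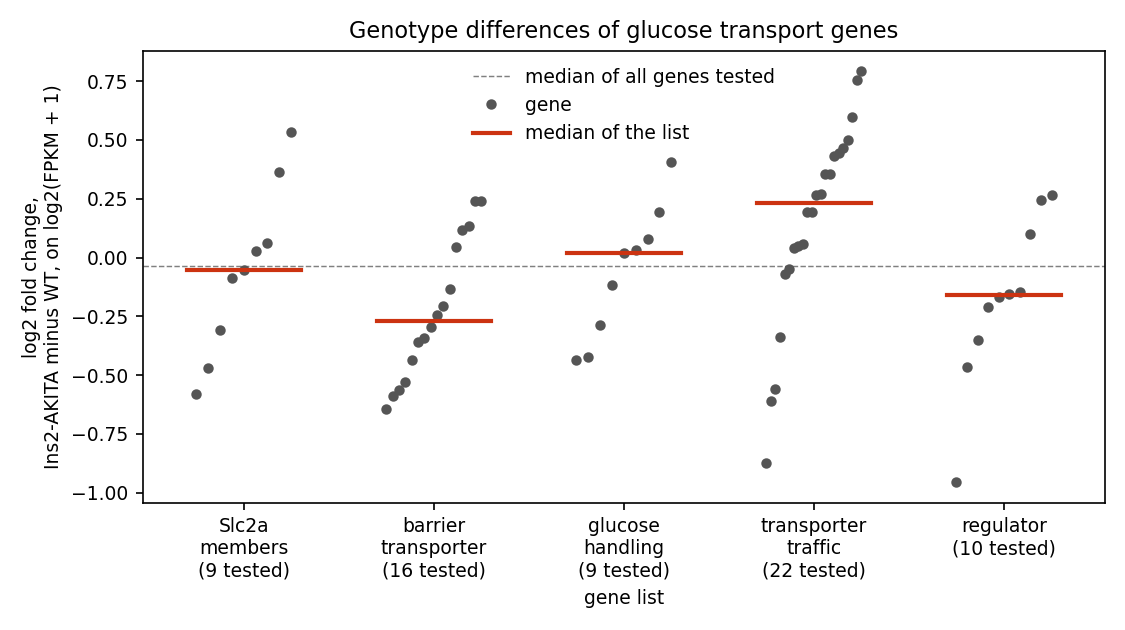
Log2 fold change (Ins2-AKITA minus WT) of each tested gene in the *Slc2a* family and 4 related lists, as grey points, with a red bar at the median of each list and a dashed line at the median of all genes tested. List medians run from -0.27 for barrier transporters to 0.23 for transporter traffic.

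The genes whose level over the 5 mice was most like that of *Slc2a1* were *Acaa1a*, *Cpsf4*, *Mef2d*, *Slc45a1* and *Dctn2*. Their Pearson correlation with *Slc2a1* on log2(FPKM + 1) ran from 0.996 for *Dctn2* to 0.999 for *Acaa1a*, among 8186 genes with a mean of at least 10 FPKM. These are the 5 highest values of that set and rest on only 5 libraries, which limits what they show. A correlation of 0.9 was reached by 477 of these genes (5.83%). *Slc45a1*, which encodes a sugar transporter of brain outside the *Slc2a* family, was at 19.6, 10.1 and 8.04 FPKM in WT. It was at 7.66 and 5.41 FPKM in Ins2-AKITA, both below all WT mice (background 10.3%). *Dctn2* had the same separation, whereas *Acaa1a*, *Cpsf4* and *Mef2d* overlapped. All were picked for their likeness to *Slc2a1* in these mice, so their direction is not independent of it.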

How the data were processed

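RNA of brain microvascular fragments was sequenced, 1 library per mouse, from 3 WT and 2 Ins2-AKITA mice. The authors depleted ribosomal RNA, made stranded total RNA libraries, mapped reads to NCBIM37 with TopHat2 2.0.4, removed duplicates with Picard 1.92 and tested with Cufflinks 2.2.1, per the labels and the study's methods. In the study that test called *Slc2a1* and *Txnip* lower in Ins2-AKITA, at a corrected p under 0.05. The Cufflinks test needs the reads and was not repeated here, and the limma comparison differs from it. What the authors deposited is 1 FPKM value for each gene in each mouse, and the program that made them is not given in the sources used here. Removing duplicates can lower high levels of short genes, and division by length can inflate genes shorter than a fragment, which moves sums over all genes.

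Identifiers (37982) were matched to GENCODE vM1 on NCBIM37 (785 unmatched), and rows sharing a symbol were summed. Genes with a mean of at least 1 FPKM (16286) were compared on log2(FPKM + 1) in R 4.3.3 by limma 3.58.1 (lmFit, eBayes with trend), genotype only, two-sided, Benjamini-Hochberg adjusted over all of them, and the fit was tested on simulated data. This scale understates changes of low genes. Single values were compared by exact permutation over all 10 splits in Python 3.11.15. Fragments were estimated from the steps of low values of genes with 1 transcript. The depth was chosen to bring most of these values near whole numbers. That 96.2% to 97.5% fell within 0.05 of a whole number is thus not a separate check. The members have 2 to 12 transcripts, so their fragment numbers and Poisson intervals are approximate. Alternatives covered the pseudocount, the filter, TPM and other scalings, a constant prior variance, a replicate block and leaving out each mouse. Members and lists were chosen with earlier results of these data known. The genes named outside the family were the 2 tested genes with the highest and the 2 with the lowest fold change of each list of glucose handling, traffic and regulators, *Txnip*, *Hk1*, *Hk2* and the 5 genes most like *Slc2a1*. Other genes named were chosen after their values were seen. Promoter windows were taken from RefSeq (GRCm38.p6), and no coordinates were converted.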

Additional observations from a re-analysis of the deposited data

How the results depend on the processing

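Under every alternative 0 of the 9 members were called, and the lowest limma adjusted p of any member was 0.268 with TPM and 0.587 otherwise, the latter for *Slc2a1* without WT replicate 3. With TPM, 58 genes were called higher and 30 lower, the *Slc2a1* log2 fold change was 1.11, the median of the members was 0.80 and that of the barrier transporters 1.21, all beside a median of 1.07 for all genes. *Slc2a6* (0.96), *Slc2a8* (0.64), *Slc2a9* (0.11) and *Slc2a12* (0.80) also turned positive. The count of 4 lower genes became 2 without the filter, 2 with a filter at 5 FPKM (which left 6 of the 9 members) and 2 with a constant prior, which called 1 gene higher. Scaling by protein-coding genes put *Slc2a4* at -0.0071, quantile normalization put *Slc2a6* at 0.0012 and *Slc2a12* at 0.11, and log2 values without the added 1 put *Slc2a10* at -0.048. The cause was not tested.

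With each mouse left out, higher genes ranged from 0 to 10 and lower genes from 1 to 6, *Slc2a1* from -0.80 to -0.30, *Slc2a3* from 0.27 to 0.67, the median of the members from -0.80 to 0.23, that of the barrier transporters from -0.41 to -0.14, *Slc2a3* relative to neuronal markers from 0.27 to 0.60 and *Slc2a1* relative to endothelial markers from -0.40 to 0.21 (0.21 without WT replicate 1). Signs changed for *Slc2a4* (-0.16 to 0.14), *Slc2a6* (-0.42 to 0.28), *Slc2a8* (-1.18 to 0.23), *Slc2a9* (-1.30 to 0.68), *Slc2a10* (-0.80 to 1.53), *Slc2a12* (-1.23 to 1.13) and *Slc2a13* (-0.22 to 0.30). Where 1 Ins2-AKITA mouse remained, it was assumed to vary like the WT mice.

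Mice share replicate numbers across genotypes, and deviations of mice with the same number were nearly uncorrelated (0.05 and -0.03). The deviations of the Ins2-AKITA mice mirror each other around their mean, so these values cannot decide whether the numbers pair the mice. The labels do not say. With the replicate block, *Slc2a1* was at -0.79 (limma p 0.022, adjusted p 0.603, which ran from 0.414 to 0.9977 over its alternatives) and *Slc2a13* at -0.22. Low members (*Slc2a4*, *Slc2a9*, *Slc2a10*) rest on few fragments, which limits what their values can show.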
